A study of Homo sapiens with 9 samples.

Results

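RNA polymerases I, II and III are the nuclear enzymes that transcribe ribosomal RNA, messenger RNA, and transfer RNA with other short RNAs, respectively. Their subunit genes were taken from the table of 57338 genes as all those whose symbol, found from the Ensembl identifier, was POLR1, POLR2 or POLR3 followed by a subunit letter. The pattern matched 47 symbols, and after 14 pseudogenes were left out, 33 genes remained. Of these, 5 encode subunits found in all 3 polymerases, 2 encode subunits shared by Pol I and Pol III, 6 belong to Pol I alone, 10 to Pol II and 10 to Pol III. The rule uses symbols and no measured level. Each polymerase is built around its 2 largest subunits, which form the catalytic centre. Shared small subunits hold this core together, and a stalk and further heterodimers particular to each enzyme take part in initiation, RNA cleavage and termination. All 3 enzymes are needed in dividing cells, and their subunits are usually made together and assembled in the cytoplasm before import into the nucleus.

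The RNA was extracted from HEK293T, a human embryonic kidney line that carries the SV40 large T antigen, after transfection with a pcDNA3.1 plasmid. The plasmid encoded EGFP alone (empty vector), EGFP fused to human protamine 1 (hPRM1) or EGFP fused to human protamine 2 (hPRM2), protamines being the small basic proteins that pack DNA in sperm. Live cells with high EGFP signal were sorted on day 3. By this design each group would describe transient expression in strongly transfected cells of 1 line. The markers given below go against this for the libraries labelled hPRM1. Each of the 3 groups had 3 libraries of polyadenylated RNA read from the 3′ end, numbered as replicates, and the question was how each protamine changed RNA levels relative to the empty vector. The labels do not say whether replicates were separate transfections, so p-values measure only the spread between these libraries, which may be technical.

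The reads on genes, estimated from the spacing of low values, ranged from 7930000 to 10790000 in the empty vector, from 4210000 to 5860000 in the libraries labelled hPRM1 and from 1270000 to 2650000 in hPRM2. A listed value of 0 allows up to 3 reads, or 0.278 to 0.378, 0.512 to 0.712 and 1.13 to 2.36 CPM (RPKM without the length correction) in these groups, and this limit covers counting error only. PRM2 reached 71224, 60050 and 36130 RPKM in hPRM2 and was listed at 0 elsewhere, whereas PRM1 was listed at 0 in all 9 libraries, those labelled hPRM1 included. The libraries labelled hPRM1 also went against their label as HEK293T cells. Of 12 HEK293T markers, 0 reached 1 RPKM in all 3 of them and 7 were at 0 in all 3, and the 12 summed to 1.06 to 1.74 RPKM, against 270 to 391 in the empty vector and 193 to 235 in hPRM2. Of 8 erythroid markers, 7 reached 1 RPKM in all 3 of these libraries. Their sum was 2.06e+06 to 2.27e+06 RPKM, led by HBA2 and HBB, against 3.09 to 18.2 in the empty vector and 2.16 to 16.3 in hPRM2. Of 15 leukocyte markers, 14 reached 1 RPKM in all 3, with sums of 6657 to 7716 RPKM, against at most 4.73 in the other 6 libraries. The 5 platelet markers summed to 319 to 560 RPKM there, against at most 13.5 elsewhere. These libraries also carry library numbers from another series of numbers than the other 6, so library numbering and condition cannot be told apart. hPRM2 replicate 1 stood apart from its group, with 9652 genes above 0 against 14353 and 15633 in the others, and results that rest on it are given with and without it. RPKM values are shares of a library, and in bulk RNA fewer cells of a type and less RNA per cell cannot be told apart.

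The 250 bases before the transcription start, from the RefSeq annotation of GRCh38.p14, were found for 24 of the 33 genes. The core CCGGAA, to which ETS factors bind, was present on either strand in 11 of the 24 windows (45.8%), compared with 14.8% of all 27305 windows of the same length. The E-box CACGTG stood in 3 (12.5%, against 6.5%), CCAAT in 5 (20.8%, against 33.0%), the palindromic NRF1 core, which is the first run of capitals in the POLR2F window below, in 1 (4.2%, against 1.1%) and TATAAA in 1 (4.2%, against 11.1%), which was that of POLR2M. Median GC content was 60.6% in the 24 windows and 58.0% in all windows. A match is a run of letters and no measure of binding. Windows of POLR2I, POLR2J3, POLR2K and POLR3G, which the comparisons below also turn on, are not shown, as no entry was matched. The 4 windows below are those of further genes described in detail, each on the plus strand of GRCh38.p14 and ending at the base before the start. POLR2A encodes the largest Pol II subunit (chr17:7484116-7484365) and POLR2B the second of the catalytic pair (chr4:56978646-56978895). POLR2F encodes a shared subunit (chr22:37953449-37953698) and POLR3GL a Pol III subunit that has an alternative form (chr1:145964440-145964689). Capitals mark matches to the 5 motifs above on either strand, so that TTCCGG and ATTGG are the reverse complements of CCGGAA and CCAAT. The windows of POLR2A and POLR2B held no match.
POLR2A: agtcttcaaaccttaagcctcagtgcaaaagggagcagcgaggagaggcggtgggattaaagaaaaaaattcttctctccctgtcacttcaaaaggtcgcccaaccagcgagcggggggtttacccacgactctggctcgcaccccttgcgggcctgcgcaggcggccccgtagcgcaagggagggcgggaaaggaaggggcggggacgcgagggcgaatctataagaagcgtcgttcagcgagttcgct
POLR2B: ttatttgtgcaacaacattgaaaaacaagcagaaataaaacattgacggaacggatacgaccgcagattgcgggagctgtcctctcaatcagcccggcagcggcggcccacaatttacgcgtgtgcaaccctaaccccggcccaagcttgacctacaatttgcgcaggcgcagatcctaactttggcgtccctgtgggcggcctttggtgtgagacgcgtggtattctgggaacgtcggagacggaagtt
POLR2F: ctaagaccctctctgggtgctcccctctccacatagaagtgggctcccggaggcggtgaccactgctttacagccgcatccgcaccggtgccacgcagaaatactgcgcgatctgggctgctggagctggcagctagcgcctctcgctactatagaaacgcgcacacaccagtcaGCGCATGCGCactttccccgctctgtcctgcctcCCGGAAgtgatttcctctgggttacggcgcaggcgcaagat
POLR3GL: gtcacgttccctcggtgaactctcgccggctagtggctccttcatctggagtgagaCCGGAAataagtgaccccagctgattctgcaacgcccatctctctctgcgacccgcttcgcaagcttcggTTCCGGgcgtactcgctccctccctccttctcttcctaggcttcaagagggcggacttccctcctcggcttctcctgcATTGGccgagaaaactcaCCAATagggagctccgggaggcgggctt
In POLR2F the NRF1 core lay 75 to 66 bases and the ETS core 41 to 36 bases before the start. In POLR3GL the ETS core was found 194 to 189 and, on the other strand, 124 to 119 bases before the start, and the CCAAT box 46 to 42 and 28 to 24 bases before it.

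In the empty vector, 32 of the 33 subunit genes had a level above 0 in all 3 libraries. Their levels are in RPKM, reads scaled by gene length in kilobases and by the reads of the library, and since a 3′ library reads each transcript at 1 end, division by length lowers the values of long genes. The highest mean was that of POLR2I, a small Pol II subunit that takes part in start-site choice and in transcription fidelity, at 1372 ± 212 RPKM (SD, n = 3). POLR2L, a small subunit of all 3 enzymes, followed at 303 ± 46.0 RPKM (SD, n = 3), and POLR1D, shared by Pol I and Pol III, at 279 ± 7.59 RPKM (SD, n = 3). The ranges of the last pair overlapped. At the lower end, POLR1A, the largest Pol I subunit, reached 5.85 ± 2.10 RPKM and POLR3B, the second largest Pol III subunit, 5.71 ± 0.962 RPKM (SD, n = 3 each), which also overlapped. The median of the 32 means was 46.3 RPKM. Among genes above 0, the median subunit gene stood at percentile 81.6, 82.5 and 79.9 in the 3 empty vector libraries. In the libraries labelled hPRM1 it stood at 66.5, 60.1 and 68.9, and in hPRM2 at 62.3, 81.9 and 83.6, the low value being replicate 1.

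**Figure D1:**
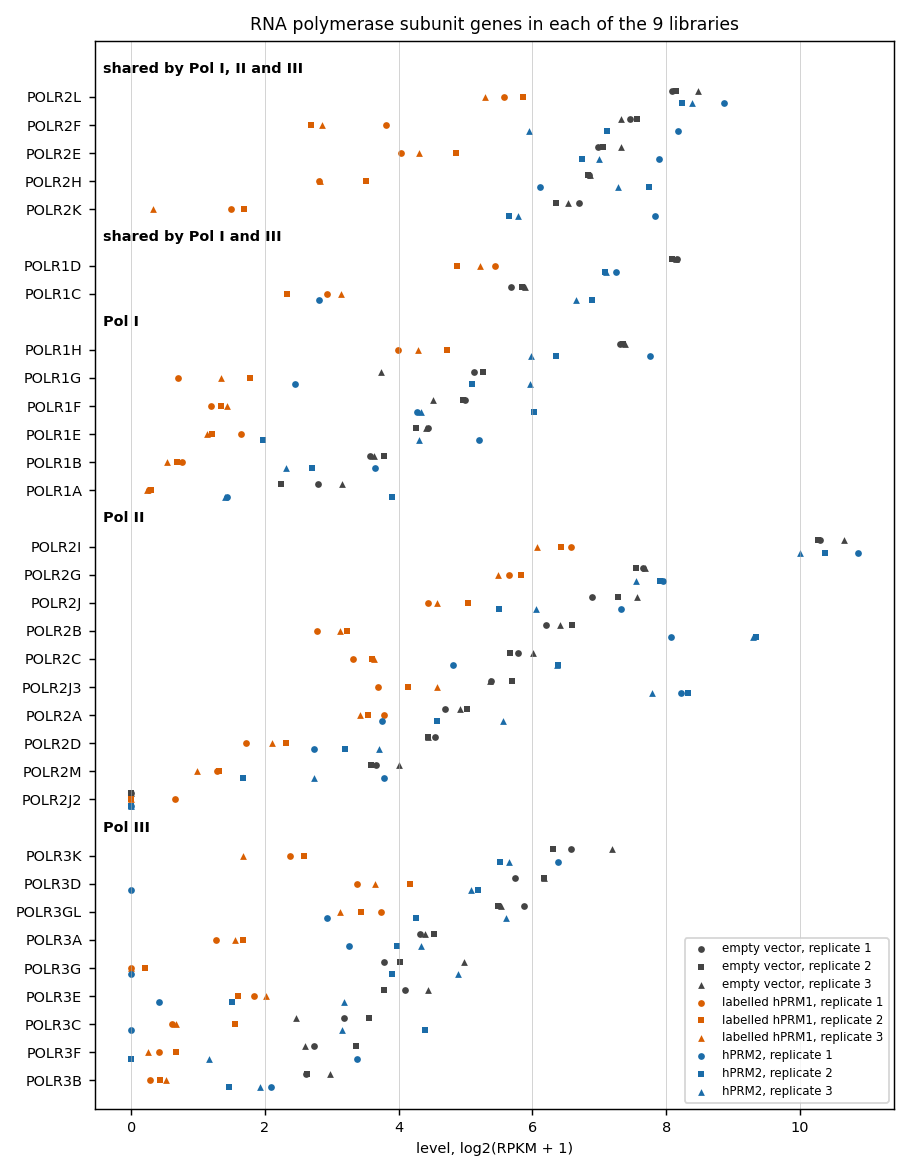
Level of each subunit gene shown, as log2(RPKM + 1), in each of the 9 libraries, with genes in rows by class and ordered by their empty vector mean within a class. Black points are the empty vector, orange the libraries labelled hPRM1 and blue hPRM2, with circles, squares and triangles for replicates 1, 2 and 3. For every gene but POLR2J2 the orange points lie below the black ones at the deposited scaling. After median-of-ratios rescaling these 2 groups are apart for 25 of 32 genes, beside 71.2% of all genes tested. The differences of POLR2A, POLR2G and POLR2J3 are then above 0, and none of them was called, each being less than 2-fold. At the deposited scaling the blue points lie to the right of the black ones for POLR2B and POLR2J3.

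The 33 levels added up to 3469, 3506 and 4082 RPKM with the empty vector, to 391.7, 432.7 and 353.9 RPKM in those labelled hPRM1 and to 4749, 4107 and 3606 RPKM in hPRM2. The order of the genes was much the same in the empty vector libraries, with a Spearman rho of 0.971 to 0.988 over 33 genes between each library and the mean of the others. Against the empty vector mean, rho was 0.835 to 0.900 in the group labelled hPRM1, and hPRM2 replicates 1, 2 and 3 had 0.766, 0.859 and 0.889. These values are descriptions over genes that share the same length correction and the same libraries. The median SD over replicates of log2(RPKM + 1), over 32 genes, was 0.190 in the empty vector, 0.283 in the libraries labelled hPRM1 and 0.923 in hPRM2. Over hPRM2 replicates 2 and 3 alone it was 0.341.

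Against the empty vector, the libraries labelled hPRM1 had lower RPKM for all 32 subunit genes that passed the filter on low values, and the 2 groups overlapped for none of them. For 5 of the 32 the filter was met only through the empty vector. In limma, 32 of 32 were called lower and 0 higher, where a call needed an adjusted p of at most 0.05 and a change of at least 2-fold. This has to be read against all 13588 genes tested, of which 62.5% were called lower, 12.9% were called higher and 80.8% had groups that did not overlap. Differences in log2(RPKM + 1) of the subunit genes ran from -5.35 to -1.30 with a median of -2.70, whereas the median of all genes tested was -1.72. Below that median lay 30 of the 32, the exceptions being POLR2A and POLR2J3. The gap depends on the genes it is set against. With a filter of 10 RPKM the median of all genes was -2.428, and that of the 27 subunit genes tested was -2.955. All 27 were called lower, beside 4970 of 6983 genes. When libraries were instead rescaled by the median of ratios, which brought the median of all genes to -0.12, 15 of the 32 stayed called lower and 0 were called higher, beside 28.9% and 28.8% of all genes, and the groups stayed apart for 25 of the 32 (71.2% of all genes). The 15 called lower included all 5 genes that met the filter only through the empty vector. At this scaling the median of the subunit genes was -0.92, and POLR2A, POLR2G and POLR2J3 changed sign to 0.77, 0.19 and 0.76. Their limma adjusted p was 0.02093, 0.328 and 0.04302, so POLR2A and POLR2J3 missed a call only by the 2-fold rule. The part that the erythroid, leukocyte and platelet transcripts and the missing HEK293T transcripts of these libraries play in these differences was not tested, and since all 3 libraries carry them there is no value without them.

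The genes of the shared subunits had the lowest class median at this scaling and pseudocount, -3.80, and 5 of 5 were called lower. POLR2K, which encodes the smallest shared subunit with a zinc-binding fold, was at 103, 80.7 and 91.5 RPKM with the empty vector and at 1.82, 2.22 and 0.256 RPKM in those labelled hPRM1. The 2 ranges lay far apart, with a log2 difference of -5.35 ± 0.38 (SE) and an adjusted p of 2.795e-05 in limma. POLR2F, whose product sits at the base of the clamp in all 3 enzymes and whose start region is printed above, was at 175, 189 and 159 RPKM against 13.0, 5.48 and 6.26 RPKM. Its difference was -4.33 ± 0.32 (SE, limma adjusted p = 3.063e-05). POLR2H, POLR2E and POLR2L, which encode the remaining common subunits, differed by -3.80, -2.73 and -2.66, so that the 5 genes did not move by the same amount. After median-of-ratios rescaling, POLR2F, POLR2H and POLR2K were still called lower, and POLR2E and POLR2L were lower by less than 2-fold.

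POLR1C and POLR1D encode the pair that starts assembly of both Pol I and Pol III. POLR1D was at 285, 271 and 283 RPKM with the empty vector and 42.3, 28.3 and 36.2 RPKM in those labelled hPRM1, without overlap. POLR1C was at 50.5, 56.7 and 58.1 RPKM against 6.64, 4.04 and 7.83 RPKM. The 2 differences were nearly the same, -2.95 ± 0.19 for POLR1D and -3.004 ± 0.26 for POLR1C (SE, limma adjusted p = 1.96e-05 and 5.938e-05). Neither was called after median-of-ratios rescaling, where they were -0.79 and -0.96.

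Among the 6 Pol I genes, all called lower with a median of -3.03, the 2 catalytic subunits had the lowest RPKM in the empty vector, a scale that divides 3′ reads by the length of these long genes. POLR1B, the second largest subunit, was at 10.9, 12.7 and 11.3 RPKM with the empty vector and at 0.693, 0.605 and 0.455 RPKM in those labelled hPRM1, which gave -2.999 ± 0.20 (SE, limma adjusted p = 2.056e-05). POLR1A was at 5.92, 3.72 and 7.92 RPKM against 0.205, 0.228 and 0.184 RPKM. For values this low, the pseudocount of 1 RPKM compresses the difference, which was -2.46. POLR1F, the stalk subunit that contacts the initiation factor RRN3, differed by -3.50 ± 0.22 (SE, limma adjusted p = 1.744e-05). The order of differences within the class changes with the pseudocount. POLR1E and POLR1G, which form a heterodimer, differed by -3.05 and -3.44, and POLR1H, which takes part in RNA cleavage, by -3.02. With median-of-ratios rescaling 5 of the 6 were called lower and POLR1H was not, at -0.88. POLR1A and POLR1B, among these 5, were under 1 RPKM in every library labelled hPRM1 and met the filter only through the empty vector.

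Differences of Pol II genes ranged widely, and all 9 genes tested were called lower, with a median of -2.43. POLR2A, the catalytic subunit that carries the C-terminal repeat domain, was at 24.9, 31.5 and 29.1 RPKM with the empty vector and at 12.7, 10.6 and 9.71 RPKM in those labelled hPRM1. The groups did not overlap, and the difference of -1.30 ± 0.20 (SE, limma adjusted p = 0.0009626) was small beside the median of the 32. Its partner POLR2B was at 72.3, 95.1 and 84.2 RPKM against 5.88, 8.35 and 7.68 RPKM, a difference of -3.36 ± 0.21 (SE, limma adjusted p = 1.79e-05). The ratio of POLR2B to POLR2A within a library, which does not depend on library scaling, was 2.90, 3.02 and 2.89 with the empty vector and 0.461, 0.785 and 0.791 in those labelled hPRM1. POLR2I fell from 1260, 1239 and 1616 RPKM to 94.1, 84.6 and 66.1 RPKM, a difference of -4.06 ± 0.20 (SE, limma adjusted p = 7.224e-06). POLR2D and POLR2G, which form the stalk, differed by -2.43 and -1.97, and POLR2C and POLR2J, the Pol II counterparts of POLR1C and POLR1D, by -2.31 and -2.57. POLR2M, whose product joins a part of Pol II in the cell, differed by -2.56, and it overlaps the longer gene GCOM1 on the same strand. After median-of-ratios rescaling only POLR2B and POLR2I of the 9 were called lower, and POLR2A, POLR2G and POLR2J3 were above 0.

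All 10 Pol III genes were called lower, with a median of -2.31. POLR3K, which takes part in RNA cleavage and termination, was at 94.4, 78.5 and 145 RPKM with the empty vector and at 4.18, 4.99 and 2.18 RPKM in those labelled hPRM1, a difference of -4.49 ± 0.34 (SE, limma adjusted p = 3.547e-05). POLR3G and POLR3GL encode alternative forms of 1 subunit, of which POLR3G is known from embryonic and tumour cells and POLR3GL from most differentiated tissues. POLR3G was at 12.7, 15.3 and 30.6 RPKM with the empty vector and at 0, 0.158 and 0 RPKM in those labelled hPRM1. POLR3GL was at 57.5, 43.8 and 45.0 RPKM against 12.3, 9.86 and 7.72 RPKM. Both groups were apart for both genes, with differences of -4.19 ± 0.35 for POLR3G and -2.19 ± 0.24 for POLR3GL (SE, limma adjusted p = 5.028e-05 and 0.0001617). The POLR3G value depends on the pseudocount, being -7.05 with 0.1 RPKM and -2.21 with 5 RPKM, and is no bound. POLR1A, POLR1B, POLR3B, POLR3F and POLR3G were under 1 RPKM in every library labelled hPRM1, so they passed the filter only through the empty vector, which fixes their direction. The single POLR3G value above 0 in these libraries amounts to about 2.02 reads at most, if the longest annotated transcript was counted. The catalytic POLR3A and POLR3B, POLR3C and POLR3F of the initiation subcomplex, and the pair POLR3D and POLR3E lay between -2.92 and -2.12. With median-of-ratios rescaling, POLR3A, POLR3B, POLR3F, POLR3G and POLR3K were called lower, and POLR3GL was at -0.11.

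**Figure D2:**
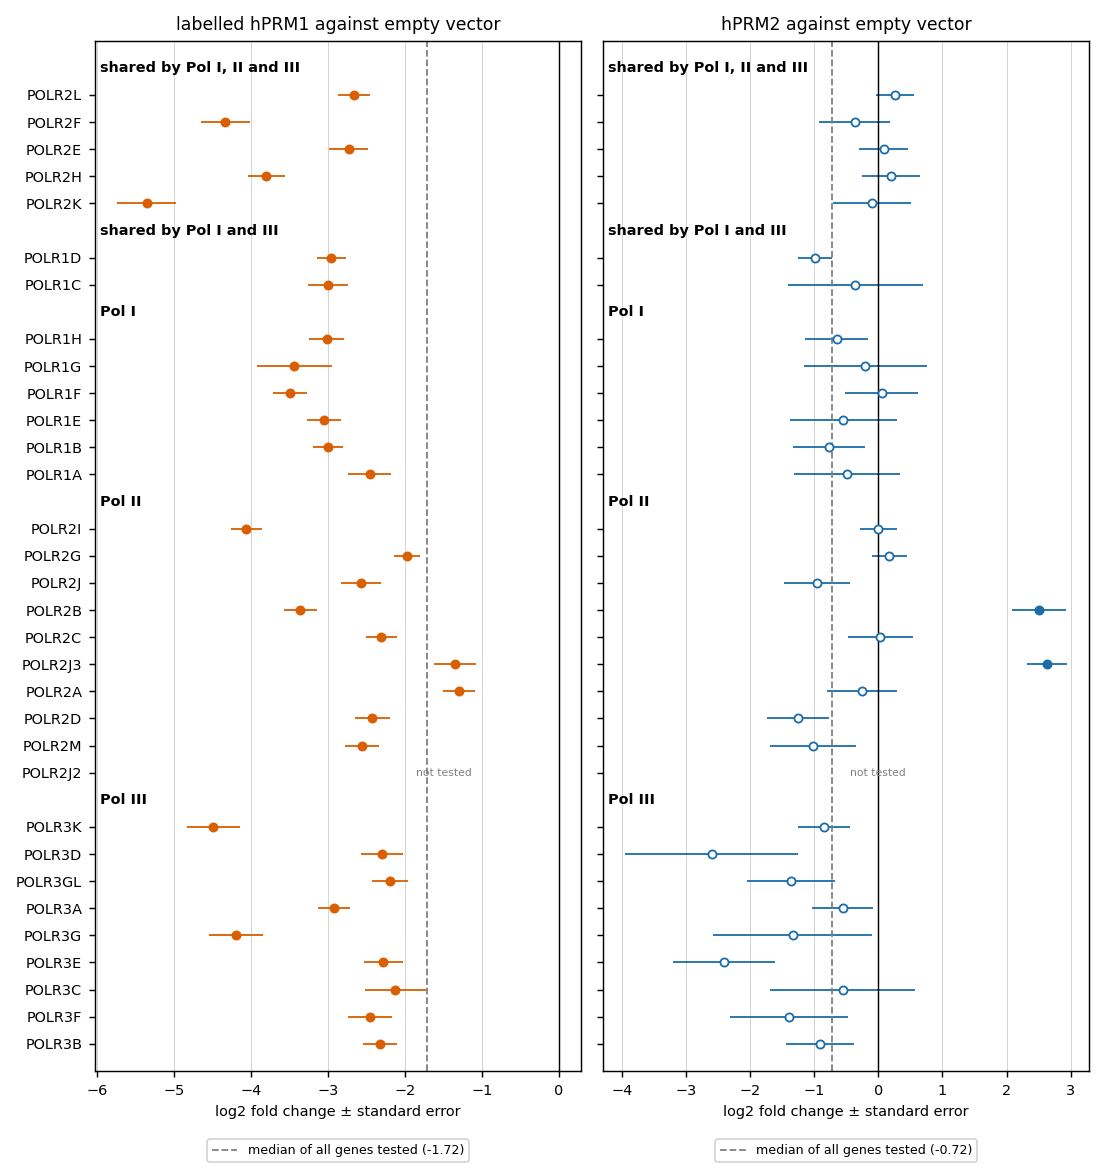
Difference in log2(RPKM + 1) from the empty vector for each subunit gene shown, with its standard error, for the libraries labelled hPRM1 (left) and hPRM2 (right) at the deposited scaling. Filled points passed the call and open points did not, and the dashed line is the median of all genes tested, -1.72 on the left and -0.72 on the right. On the left all points are filled and below 0, although POLR2A, POLR2G and POLR2J3 are above 0 after median-of-ratios rescaling, and on the right only POLR2B and POLR2J3 are filled.

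In hPRM2 against the same empty vector libraries, most subunit genes did not differ by more than the replicates. POLR2B and POLR2J3 were higher, 2 of 32 genes tested (1.36% of all 13126 genes were called higher), and 0 were called lower (1.37% of all genes). At an unadjusted p under 0.05 there were 5 of the 32, beside 3351 of all 13126 genes. The groups did not overlap for 7 of the 32, compared with 35.9% of all genes tested, and these were POLR2B and POLR2J3, which were higher, and POLR1D, POLR2D, POLR3B, POLR3D and POLR3E, which had lower values. The median difference of the subunit genes was -0.52, beside -0.72 for all genes. Without hPRM2 replicate 1, 4 of the 32 were called lower (12.3% of all genes), which were POLR1D, POLR1H, POLR2J and POLR3F, and POLR2B and POLR2J3 were again the 2 called higher (6.17% of all genes). Median-of-ratios rescaling left POLR2B and POLR2J3 as the only 2 called (0.625% of all genes were then called lower and 1.68% higher), with groups apart for 9 of the 32 (26.3% of all genes).

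POLR2B (ENSG00000047315, chromosome 4 from 56977722 to 57031168 on the plus strand of GRCh38) was at 72.3, 95.1 and 84.2 RPKM in the empty vector and at 267, 650 and 629 RPKM in hPRM2 replicates 1, 2 and 3. Every hPRM2 library lay above every control, with the lowest value in replicate 1. The difference was 2.51 ± 0.42 (SE, limma adjusted p = 0.03741), and 2.92 ± 0.22 (SE, limma adjusted p = 0.002409) without replicate 1. The ratio of POLR2B to POLR2A was 2.94 ± 0.0735 in the controls and 21.2 ± 7.51 in hPRM2 (SD, n = 3 each), while POLR2A itself, at 12.4, 22.7 and 46.4 RPKM, was spread around the controls. The call was lost when another library was left out, with a limma adjusted p of 0.119 without hPRM2 replicate 2, 0.0691 without replicate 3, and 0.135 to 0.144 without any 1 of the empty vector libraries. It was also lost with a replicate block (0.074), with no filter (0.0887) and with the per-gene test of the methods (0.299). POLR2B overlaps IGFBP7 and NOA1 on the opposite strand, and whether counting used strand is not given in the sources used here. The annotated transcripts of POLR2B run from 444 to 4108 bases, and the length by which each library's count was divided is not part of the table. Among low values of genes with 4 or more transcripts, 76.1% of 1857 pairs of libraries stood in a small whole-number ratio within a tolerance of 0.012 on the natural log scale, against 94.8% of 1393 pairs for genes with 1 transcript. The part of the length correction in the POLR2B difference was not tested.

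POLR2J3 (ENSG00000168255, chromosome 7 from 102537918 to 102572653 on the minus strand) is 1 of the near-identical copies of POLR2J, the gene of a small subunit that pairs with the POLR2C product. It was at 40.7, 50.8 and 40.3 RPKM in the controls and 298, 321 and 220 RPKM in hPRM2. All 3 hPRM2 libraries were well above the controls, and the difference was 2.63 ± 0.31 (SE, limma adjusted p = 0.01717), or 2.58 ± 0.28 (SE, limma adjusted p = 0.006909) without hPRM2 replicate 1. Its call was lost without hPRM2 replicate 2 (limma adjusted p = 0.0693) and without empty vector replicates 1, 2 or 3 (limma adjusted p = 0.111, 0.0884 and 0.105), and also with a replicate block (0.0691) and with the per-gene test of the methods (0.189). POLR2J itself was at 118, 155 and 189 RPKM in the empty vector and at 160, 44.4 and 65.4 RPKM in hPRM2, so that only replicate 1 lay within the control range. Without replicate 1, POLR2J was called lower at -1.47 ± 0.31 (SE, limma adjusted p = 0.03473), whereas with all 3 it was at -0.95 ± 0.51. The ratio of POLR2J3 to POLR2J was 0.345, 0.329 and 0.214 in the empty vector and 1.87, 7.21 and 3.36 in hPRM2. Reads of these copies can be split differently by the counting. POLR2J3 also overlaps further genes on its strand, among them another gene that GENCODE 29 names POLR2J3. For both reasons the values of single copies are uncertain. POLR2J2, the remaining copy among the 33 genes, was listed at 0 in 8 libraries and at 0.576 RPKM in replicate 1 labelled hPRM1. It was not tested, and POLR2J4 was left out as a pseudogene.

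**Figure D3:**
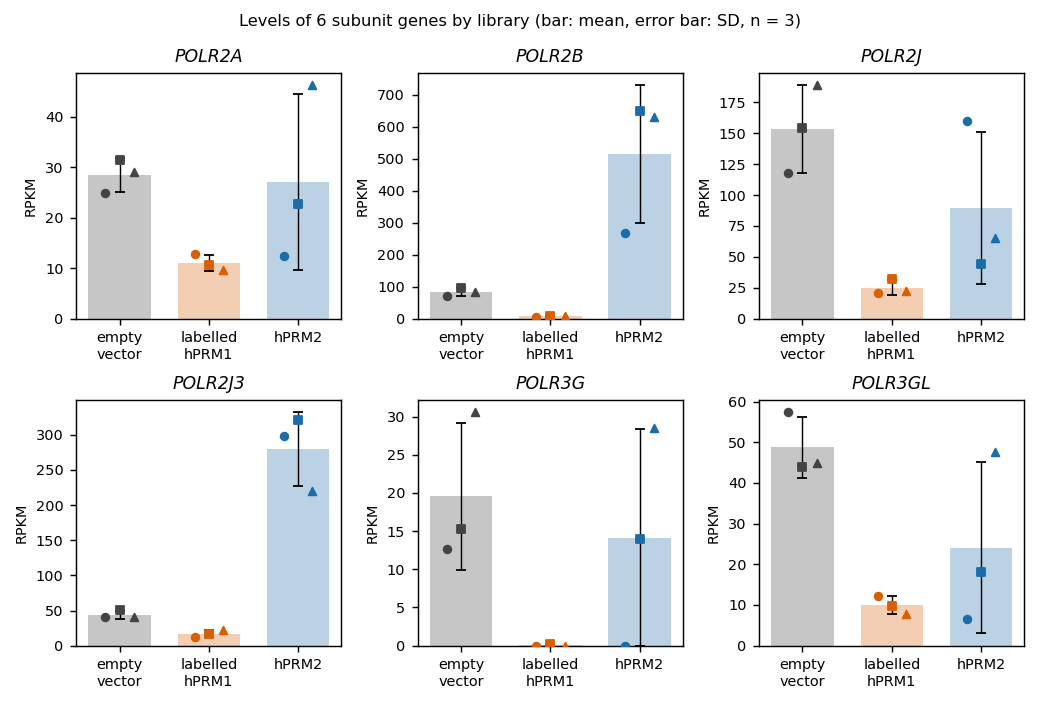
RPKM of 6 subunit genes in each library, with bars for the mean, error bars for the SD (n = 3) and circles, squares and triangles for replicates 1, 2 and 3. In hPRM2 the POLR2B and POLR2J3 points all lie above the empty vector, whereas POLR2A, POLR3G and POLR3GL spread from below to within or above it. The libraries labelled hPRM1 are lowest in mean for every gene shown at the deposited scaling. After median-of-ratios rescaling they are above the empty vector for POLR2A and POLR2J3. They are then above hPRM2 for POLR2A, POLR2J and POLR3GL (differences of 0.77, 0.28 and 0.94, none called).

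For the shared subunits, mean differences in hPRM2 ran from -0.37 to 0.26 with 0 of 5 called, but the libraries went both ways. POLR2K was at 227, 49.3 and 54.0 RPKM in hPRM2 replicates 1, 2 and 3 and POLR2F at 289, 138 and 60.8 RPKM, with replicate 1 above all controls and the others below them. POLR2H was at 67.9, 212 and 155 RPKM against 113 to 115 RPKM, with replicate 1 below and the others above. Without replicate 1 the differences of POLR2F, POLR2K and POLR2H were -0.91, -0.81 and 0.67, with groups apart and none called (limma adjusted p = 0.1199, 0.06599 and 0.08806). POLR2L, for example, was at 272, 282 and 356 RPKM in the controls and 466, 302 and 333 RPKM in hPRM2, which overlapped. POLR1D was lower in every hPRM2 library, at 151, 135 and 136 RPKM against 271 to 285 RPKM. Its difference of -0.99 ± 0.26 (SE) missed the threshold (limma adjusted p = 0.08622) and passed it without replicate 1, at -1.04 ± 0.19 (SE, limma adjusted p = 0.02631). POLR1C was at 5.97, 118 and 99.9 RPKM in hPRM2, so replicate 1 lay below all controls and the others above them. The 6 Pol I genes differed by -0.77 to 0.05 and 0 were called, but POLR1H, at 215, 80.7 and 62.3 RPKM in hPRM2 and 158 to 165 RPKM in the empty vector, was called lower without replicate 1 (-1.18 ± 0.23, SE, limma adjusted p = 0.03017).

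The 10 Pol III genes all had differences below 0 in hPRM2, down to -2.60 and with a median of -1.12 beside -0.72 for all genes, 7 of the 10 lay below that median, and 0 passed the test. Without replicate 1 the class median was -0.79, and POLR3C and POLR3G were above 0, at 0.70 and 0.13. POLR3E, which pairs with the POLR3D product, was at 16.04, 12.7 and 20.7 RPKM in the empty vector and at 0.332, 1.85 and 8.04 RPKM in hPRM2. All 3 hPRM2 libraries were below the controls, but they differed widely among themselves, and the difference of -2.40 ± 0.79 (SE) had a limma adjusted p of 0.1307. POLR3D was at 0, 35.6 and 32.9 RPKM against 52.2, 71.5 and 70.8 RPKM. The difference was -2.60 ± 1.35 (SE, limma adjusted p = 0.2664) with the 0 of replicate 1, and -0.89 ± 0.28 (SE, limma adjusted p = 0.07013) without that library. POLR3F was at 9.39, 0 and 1.24 RPKM against 5.08 to 9.32 RPKM, and without replicate 1 it was called lower at -2.32 ± 0.56 (SE, limma adjusted p = 0.04234). POLR3C, POLR3D and POLR3G were all listed at 0 in hPRM2 replicate 1. After median-of-ratios rescaling the class median was -0.62 and 1 of the 10 genes was above 0.

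When the 2 protamine groups were set against each other, the libraries labelled hPRM1 had lower levels of 21 of 30 subunit genes tested (37% of 11756 genes were called lower) and higher levels of 0 (16%), and the groups did not overlap for 24 of the 30 (62% of all genes). The median difference was -2.35, beside -0.97 for all genes, and median-of-ratios rescaling left 8 called lower (18.3% of all genes) and 0 higher (31.2%), with 13 of the 30 apart (61.3%). POLR2B differed by -5.86 ± 0.43 (SE, limma adjusted p = 0.0001996), POLR2K by -5.25 ± 0.73, POLR2I by -4.06 ± 0.30 and POLR2H by -3.997 ± 0.51 (SE, limma adjusted p = 0.001637, 0.0002045 and 0.001183). POLR2A, at -1.05 ± 0.52 (SE), was not called (limma adjusted p = 0.1435). Among Pol III genes, 4 of 8 tested were called lower, POLR3A, POLR3B and POLR3K among them, while POLR3D and POLR3E stood at 0.31 ± 1.43 and 0.12 ± 0.73. POLR2J2, POLR3F and POLR3G did not pass the filter. POLR1A, POLR1B and POLR3B were under 1 RPKM in every library labelled hPRM1. They passed the filter here only through hPRM2, which fixes their direction, and POLR1B and POLR3B are among the 21 called lower. In this comparison, too, the libraries labelled hPRM1 are those with the erythroid and leukocyte transcripts.

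The share that each class took of the summed subunit RPKM of a library does not depend on how libraries were scaled. In the empty vector, Pol II genes took 53.3%, the shared genes 22.4%, the pair shared by Pol I and Pol III 9.11%, Pol III genes 8.27% and Pol I genes 6.97% (means, n = 3). In the libraries labelled hPRM1 the shares were 52.7%, 21.6%, 10.8%, 8.58% and 6.33% in the same order, and the largest of the 5 differences was 1.69 percentage points for POLR1C with POLR1D, or 0.839 to 3.35 when 1 library was left out. The lowest two-sided exact permutation p of the 5 was 0.4, in a design that cannot go below 0.1. In hPRM2 the Pol II share was 63.2%, a difference of 9.86 points, the Pol III share 4.003%, a difference of -4.27 points, and that of POLR1C with POLR1D 5.33%, a difference of -3.79 points. In each of these 3 classes no hPRM2 library overlapped the controls, which gave p = 0.1 in a two-sided exact permutation test, as low as 3 against 3 can go (0.333 after Benjamini-Hochberg adjustment over 10 tests). The Pol II share follows POLR2I and, in hPRM2, POLR2B and POLR2J3. With POLR2B and POLR2J3 left out, an alternative added after seeing the data, the Pol II difference was 2.44 points (two-sided exact permutation test, p = 0.2).

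**Figure D4:**
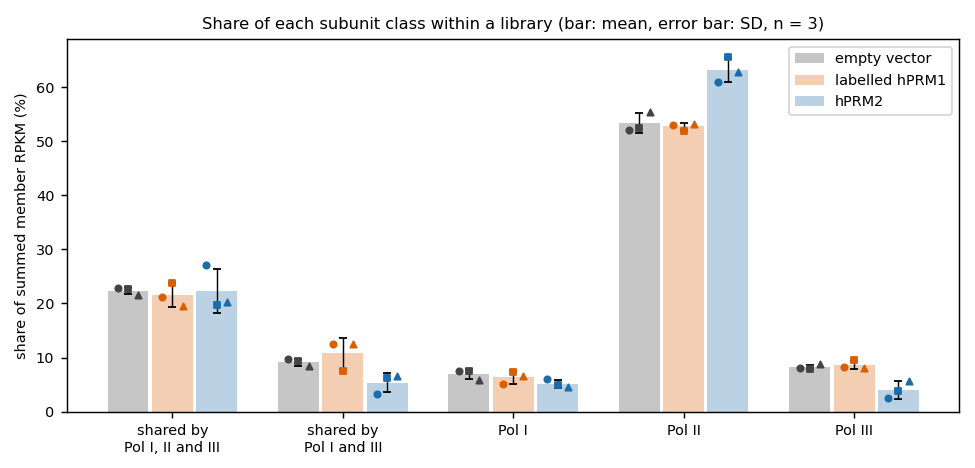
Share of each subunit class in the summed RPKM of all 33 subunit genes of a library, in percent, with bars for the mean, error bars for the SD (n = 3) and circles, squares and triangles for replicates 1, 2 and 3. The hPRM2 points lie above the empty vector for Pol II (63.2% against 53.3%) and below it for Pol III (4.003% against 8.27%).

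POLR3G made up 18.1%, 25.9% and 40.5% of the summed RPKM of POLR3G and POLR3GL with the empty vector, 0%, 1.58% and 0% in those labelled hPRM1 and 0%, 43.4% and 37.5% in hPRM2. The log2 ratio of the pair, with 1 RPKM added to each, was -1.36 ± 0.78 in the empty vector, -3.36 ± 0.33 in the libraries labelled hPRM1 and -1.34 ± 1.39 in hPRM2 (SD, n = 3 each). The libraries labelled hPRM1 lay below all controls, by -1.998 (p = 0.1 in a two-sided exact permutation test, which can go no lower). This value depends on the pseudocount, since POLR3G was at 0 in 2 of these libraries, and was -4.76 with 0.1 RPKM (p = 0.1, two-sided exact permutation test) and -0.36 with 5 RPKM (p = 0.5, same test). hPRM2 differed by 0.03 (two-sided exact permutation test, p = 1), with replicate 1 below the controls and the others near their upper end.

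The polymerases work with initiation, elongation and assembly factors, and lists of these were examined beside the subunits. In the libraries labelled hPRM1, 6 of 7 Pol I factors and 25 of 29 Pol II general factors tested were called lower. So were 18 of 22 Pol II elongation factors, 14 of 16 Pol III factors and 10 of 10 assembly factors. In these lists 0 genes were called higher, while 62.5% of all genes were called lower and 12.9% higher. List medians ran from -2.65 to -2.05, beside -1.72 for all genes. With a filter of 10 RPKM the median of all genes was -2.428, and list medians were not computed at that filter. With 1 RPKM added, the largest fall in each list was that of TAF1B (-2.80), a subunit of the Pol I selectivity factor, MNAT1 (-5.33), the third member of the kinase module of TFIIH, SSRP1 (-3.98), a subunit of the histone chaperone FACT, SNAPC1 (-4.03), a subunit of the complex that binds small nuclear RNA promoters, and GPN3 (-4.70), a GTPase needed to import Pol II (limma adjusted p from 4.765e-06 to 0.0003249). SNAPC1 was at 0.992, 0.592 and 0.477 RPKM in the libraries labelled hPRM1. It met the filter only through the empty vector, which fixes its direction. After median-of-ratios rescaling, 1, 10, 4, 6 and 4 genes of the 5 lists, in the same order, were called lower and 1, 3, 4, 2 and 0 higher, beside 28.9% and 28.8% of all genes. In hPRM2 against the empty vector 0 genes of any of the 5 lists were called in either direction by limma (1.37% of all genes were called lower and 1.36% higher). The list medians were -0.08, -0.84, -0.63, -0.84 and -0.57, beside -0.72 for all genes. With median-of-ratios rescaling 1 of 29 Pol II general factors was called higher, beside 1.68% of all genes, and no other list gene was called. Both comparisons share their 3 control libraries. Between the libraries labelled hPRM1 and hPRM2, 3 of 7, 13 of 27, 13 of 21, 8 of 15 and 6 of 9 were called lower and 0 higher, beside 37% and 16% of all genes. After median-of-ratios rescaling, 1, 3, 2, 3 and 2 were called lower and 0, 1, 2, 1 and 0 higher, beside 18.3% and 31.2% of all genes. With 1 RPKM added and the deposited scaling, the largest falls were in TAF1A (-3.14), GTF2H2 (-5.04), SUPT16H (-3.69), GTF3C6 (-4.29) and RUVBL1 (-3.76). TAF1A, at 0.319, 0.680 and 0.411 RPKM in the libraries labelled hPRM1, met the filter only through hPRM2, which fixes its direction.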

How the data were processed

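The authors deposited a single table of RPKM values, per the paper's methods made with nf-core/rnaseq (FastQC, Cutadapt, STAR and Salmon), with mitochondrial genes removed and counts scaled by library reads and by gene length in kilobases. The submitters' processing notes name hg38, and the annotation version is not given in the sources used here. RPKM values are not counts, so a model for counts was not used. Symbols were found for 98.6% of Ensembl identifiers, and gene models, overlaps and transcript lengths come from GENCODE 29, where POLR1F, POLR1G and POLR1H are TWISTNB, CD3EAP and ZNRD1. Reads on genes were estimated from the steps of low values of genes with 1 transcript of 600 to 20000 bases, with 250 bases subtracted from each length.

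Values were compared as log2(RPKM + 1) with limma 3.58.1 in R 4.3.3 (lmFit, eBayes with trend and robust), over genes that reached 1 RPKM in 3 or more of the 6 libraries compared, with Benjamini-Hochberg adjustment over all genes tested. With 1 RPKM added, the changes of genes at low levels are understated. A call needed an adjusted p of at most 0.05 and at least a 2-fold change. The procedure was tested on simulated data. Two-sided exact permutation tests served for class shares and the POLR3G to POLR3GL ratio. Every subunit gene could be named, except 1 whose values enter counts and sums but are not reported here, with the called gene of largest rise and fall in each factor list, the 2 highest genes of a marker list, PRM1 and PRM2. Numbered replicates were not treated as pairs (correlations of deviations from the group means, -0.078 to 0.080 over 14901 genes). As alternatives, the pseudocount was set to 0.1 or 5, the filter was dropped or raised to 10 RPKM, and the fits were repeated with median-of-ratios and quantile scaling, with a replicate block, a fit of all 9 libraries, the per-gene test of the methods, no fold threshold and leaving out each replicate. The subunit genes, lists and tests were chosen with earlier results of these data known. Annotation, shares and permutation tests used SciPy 1.17.1, numpy 2.4.6 and pandas 2.3.3 under Python 3.11.15, and matplotlib 3.10.9 drew the plots.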

Additional observations from a re-analysis of the deposited data

How the results depend on the processing

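The hPRM2 values rest on the fewest reads, and each comparison on 3 libraries a group. Over all alternatives, 468 of 507 values of subunit genes kept their side of the threshold in the libraries labelled hPRM1 against the empty vector. In hPRM2 against the empty vector 488 of 507 did, and between the 2 protamine groups 388 of 468. A gene called in the main fit also had to keep its direction to be counted, whereas a gene not called there did not. Of values that were not called, 35 of 475 and 9 of 138 changed sign in the last pair of comparisons. The cause of the changes below was not tested, except that leaving out a library leaves fewer samples.

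For the libraries labelled hPRM1 against the empty vector, 15 genes were called lower with median-of-ratios scaling and 20 with quantile normalization. POLR2A turned to 0.77 and 0.35 under these, POLR2J3 to 0.76 and 0.32, and POLR2G to 0.19 under the first, and no other alternative turned a called gene in this comparison. Lower calls made up 82.9% of all calls as deposited, 50% with median-of-ratios scaling and 55.8% with quantile normalization. Over all genes, 8491 lower and 1750 higher calls became 3925 and 3919, 4388 and 3475, and, with the per-gene test of the methods, 3727 and 792. With a pseudocount of 5 there were 6341 and 1152. For hPRM2 against the empty vector, 1 gene (POLR3E) was called lower in the fit of all 9 libraries, and 1 gene (POLR2J3) was called higher with no filter and 0 with the per-gene test. Over all genes, 180 lower and 179 higher calls became 1618 and 507 in the fit of all 9 libraries, 17 and 72 with no filter, 44 and 123 with a minimum of 10 RPKM, 82 and 220 with median-of-ratios scaling, 70 and 342 with quantile normalization, 101 and 152 with a pseudocount of 5, and 9 and 0 with the per-gene test. Lower calls made up 50.1% of these as deposited, 27.2% with median-of-ratios scaling and 17% with quantile normalization. Between the protamine groups, 8 genes were called lower with median-of-ratios scaling and 1 with the per-gene test, and POLR2J turned to 0.28 under the former. Over all genes, 4355 lower and 1879 higher calls became 2148 and 3662, 3104 and 2897 with quantile normalization, and 103 and 116 with the per-gene test. Lower calls made up 69.9%, 37% and 51.7% as deposited, with median-of-ratios scaling and with quantile normalization.

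The correlations of deviations showed no pairing by replicate number, which does not exclude one. With the replicate number as a block 32, 0 and 19 subunit genes were called lower in the 3 comparisons and 0 higher in each. POLR2B (limma adjusted p = 0.074) and POLR2J3 (0.0691) thus missed the threshold in hPRM2. Over all genes the block gave 8 lower and 49 higher calls in hPRM2 against the empty vector.

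When each replicate was left out in turn, lower calls of subunit genes numbered 32 to 32, 0 to 4 and 17 to 27 in the 3 comparisons and higher calls 0 to 0, 0 to 2 and 0 to 0. Over all genes in hPRM2 against the empty vector, lower and higher calls were 1619 and 810 without hPRM2 replicate 1, 10 and 17 without replicate 2, 44 and 40 without replicate 3, and 4 and 14, 6 and 35, and 2 and 10 without empty vector replicates 1, 2 and 3. The class share differences of the libraries labelled hPRM1 ranged from -1.97 to 0.162 for the shared genes, 0.839 to 3.35 for POLR1C with POLR1D, -1.20 to 0.000751 for Pol I, -1.19 to 0.512 for Pol II and -0.132 to 0.570 for Pol III. Those of hPRM2 ranged from -2.40 to 1.30, -4.39 to -2.77, -2.34 to -1.49, 8.67 to 10.9 and -5.12 to -3.54. The POLR3G to POLR3GL log ratio ranged from -2.36 to -1.59 for the libraries labelled hPRM1 and from -0.46 to 0.82 for hPRM2. With pseudocounts of 0.1 and 5 the former was -4.76 and -0.36. With POLR2B and POLR2J3 left out, chosen after seeing the data, the hPRM2 share differences were 4.49 points for the shared genes, -0.79 for Pol I and 2.44 for Pol II.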
